A study of Mus musculus with 4 samples.

Results

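The hairpins mir-221 (Mir221) and mir-222 (Mir222) were examined in small RNA from whole mouse fetal liver, with 2 libraries of Ago2 catalytic dead (Ago2 CD) and 2 of wildtype livers. They are 2 of 2202 annotated miRNA hairpins, and were chosen by gene name, with all reads that match either hairpin without mismatch and reads that carry 1 to 3 extra nucleotides at the 3′ end. In all, 23469 reads matched mir-221 and 7797 matched mir-222, and none of these reads matched another annotated hairpin. Ago2 binds small RNAs and cleaves transcripts that pair with them, an activity that the catalytic dead protein lacks. The labels give neither the age nor the strain of the animals, nor the mutation or the zygosity of the mutant. They call the libraries of a genotype biological replicates, without saying whether livers were pooled, and the livers were not sorted into cell types. Fewer cells of a type and less RNA per cell therefore cannot be told apart here.

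The mir-221 and mir-222 hairpins are made from a shared transcript of the X chromosome, and their 3p arms share a seed, the stretch that selects targets. They are known from blood progenitors, where they repress the receptor Kit and fall as red cells mature, and from endothelium, smooth muscle and proliferating cells, where the cell cycle inhibitor Cdkn1b is a target. Both are canonical miRNAs, cut by Drosha and Dicer. One strand of the duplex is kept in Argonaute as the guide and the other, the passenger, is discarded. Ago2 can assist by cutting a well paired passenger strand opposite guide positions 10 and 11.

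The sequences show what the reads below are measured against. Both hairpins lie on the minus strand of chromosome X, mir-222 upstream at chrX:19146893-19146971 and mir-221 at chrX:19146294-19146388, 504 bases apart (GRCm38). Whether either lies inside another gene was not tested. The hairpins are given from RefSeq (GRCm38.p6), with its annotated mature arms in capitals.
mir-221: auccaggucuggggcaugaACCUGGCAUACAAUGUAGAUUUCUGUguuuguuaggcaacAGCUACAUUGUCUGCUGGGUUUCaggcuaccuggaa
mir-222: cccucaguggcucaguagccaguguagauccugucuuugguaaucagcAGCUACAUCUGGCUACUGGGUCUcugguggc
The mature arms follow, with the seed (bases 2 to 8) in capitals.
miR-221-3p: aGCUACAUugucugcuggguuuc
miR-222-3p: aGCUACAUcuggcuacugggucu
miR-221-5p: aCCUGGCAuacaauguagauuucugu
The 3p arms share their first 8 bases, and 11 of 23 positions are the same when both are aligned at the 5′ end. Of 1738 mature miRNAs in the RefSeq table, 3 have this seed, the third being miR-1928, which had 0 reads in every library. Among all arms with reads, these 2 alone had a most frequent read with the seed. MiR-222-5p was taken from the reads.

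In the predicted fold of each hairpin, 19 of the 23 bases of the most frequent 3p read were paired with the most frequent 5p read. The unpaired bases of miR-221-3p were 12 and 20, and those of miR-222-3p were 1, 2, 8 and 23. Positions 10 and 11 of the 3p arm, opposite which Ago2 would cut the 5p arm, were paired in both hairpins. Free energies were -42.8 kcal/mol for mir-221 and -40.7 kcal/mol for mir-222.

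Ago2 CD replicates 1 and 2 held 21875540 and 15238066 reads, and wildtype replicates 1 and 2 held 15841697 and 13138065. The longest read was 46 nt in the first mutant and the second wildtype library (Ago2 CD replicate 1, wildtype replicate 2) and 50 nt in the other two, so each read length held 1 library of each genotype. Across 583 arms, libraries of the same read length deviated together from the means of their genotypes (Pearson correlation 0.72 across arms, which are not independent replicates). Values within these pairs are therefore given beside the pooled ones. MiR-451a, whose maturation needs cutting by Ago2, had 1203 and 965 CPM (reads scaled to a common library size) in Ago2 CD against 841852 and 415544 CPM in wildtype. Since it takes up so much of the wildtype reads, CPM values were scaled with TMM factors, which set the bulk of arms equal, and not by the total. Of the erythroid arms it was the 1 that passed the test as lower, and miR-486-3p the 1 that passed as higher (edgeR adjusted p = 0.0312 for both). MiR-486-5p, merged with the 5p arm of mir-3107, had 543 and 642 CPM in Ago2 CD against 2178 and 1666 CPM in wildtype. Its log2 fold change of -1.70 (SE 0.30, edgeR adjusted p = 0.512) did not pass. The miR-144 arms had 0.37 (3p) and -0.53 (5p), and did not pass either.

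The first question was whether the level of either miRNA depends on the cutting activity of Ago2. No arm of mir-221 or mir-222 passed the test. By TMM-scaled CPM the genotypes overlapped for miR-221-3p and miR-222-5p, whereas miR-222-3p and miR-221-5p were lower in both mutant libraries. This order depends on the scaling, since with reads on arms as library size the log2 fold change of miR-222-3p turned to 0.44. Even with full separation, 2 libraries against 2 allow an exact permutation p of 0.333 at the least (two-sided). How many of all arms separate in this way was not counted, here or for the arm shares and 5′ ends below. Separation of the libraries is therefore given as a description and not as a difference between genotypes. Over all arms, 2 of 583 passed (0.343%, edgeR quasi-likelihood test, Benjamini-Hochberg adjusted p under 0.05), and all 4 arms of mir-221 and mir-222 were among those tested.

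MiR-221-3p, the main product of the locus, had 7052 and 5926 reads in Ago2 CD and 3430 and 3278 reads in wildtype. On the TMM scale these were 354 and 623 CPM in Ago2 CD, against 575 and 370.3 CPM in wildtype. The genotypes overlapped, and the high value of each genotype was in its library of 50 nt. Means were 489 ± 190.4 CPM in Ago2 CD and 473 ± 145 CPM in wildtype (SD, n = 2 each), a log2 fold change of 0.05 (SE 0.43, edgeR adjusted p = 0.996). Within the libraries of 46 nt it was -0.07 and within those of 50 nt 0.12. The sign turned without Ago2 CD replicate 2 (-0.40) and without wildtype replicate 2 (-0.22), which leave the read lengths unevenly divided. With reads on arms as library size, where the median log2 fold change of all arms was 0.74, it was 0.81 (SE 0.48, edgeR adjusted p = 0.465).

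MiR-222-3p, which has the same seed, had 2321 and 1341 reads in Ago2 CD and 914 and 1385 reads in wildtype. These were 116 and 141 CPM in Ago2 CD, against 153 and 156 CPM in wildtype. On this scale both mutant libraries were below both wildtype libraries. Means were 129 ± 17.4 CPM in Ago2 CD and 155 ± 2.32 CPM in wildtype (SD, n = 2 each). The log2 fold change of -0.27 (SE 0.29, edgeR adjusted p = 0.996) did not pass. It was -0.43 in the pair of 46 nt and -0.12 in that of 50 nt, and with read length in the model the SE was 0.17 and the edgeR adjusted p 0.382. With reads on arms as library size the log2 fold change turned to 0.44.

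The 5p arms, the presumed passenger strands, had few reads. MiR-222-5p had 34 and 28 reads in Ago2 CD and 16 and 24 reads in wildtype, or 1.71 and 2.94 CPM in Ago2 CD against 2.68 and 2.71 CPM in wildtype. The wildtype libraries lay inside the range of the mutant ones. Its log2 fold change was -0.23 (SE 0.47, edgeR adjusted p = 0.996), with the sign turned without Ago2 CD replicate 1 (0.14). MiR-221-5p had 18 and 15 reads in Ago2 CD and 11 and 23 reads in wildtype, or 0.903 and 1.58 CPM in Ago2 CD against 1.84 and 2.60 CPM in wildtype. On the TMM scale both mutant libraries were below both wildtype libraries. The log2 fold change of -0.88 (SE 0.51, edgeR adjusted p = 0.996) was -1.36 in the pair of 46 nt and -0.20 in that of 50 nt. With read length in the model it was -0.95 (SE 0.44, edgeR adjusted p = 0.252). No change of either 5p arm was detectable at this depth.

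**Figure D1:**
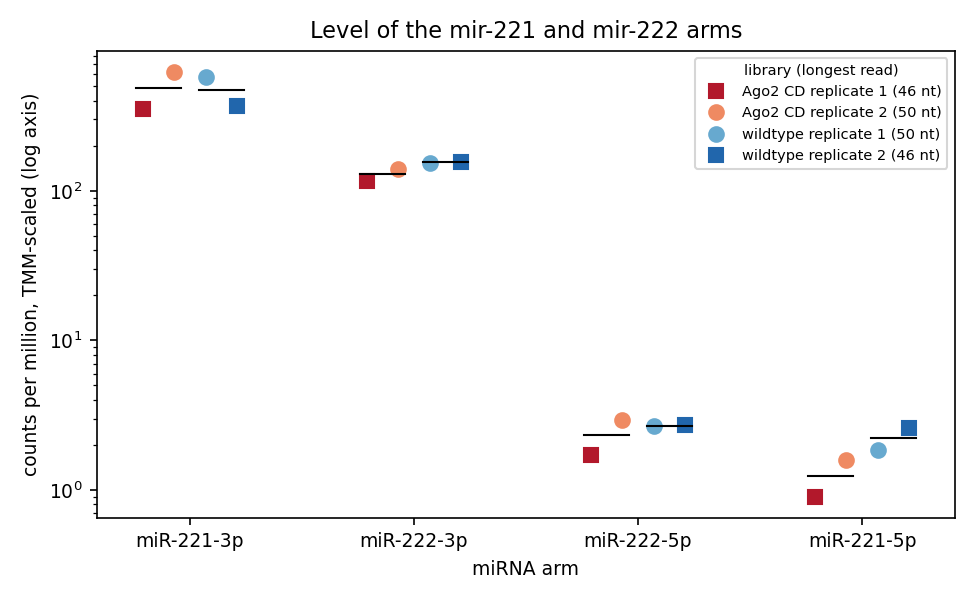
TMM-scaled CPM (log axis) of each arm in each library, Ago2 CD left of wildtype, with squares for libraries of 46 nt, circles for libraries of 50 nt and bars for the mean of 2 libraries. MiR-221-3p lies at 354 to 623 CPM and follows read length, miR-222-3p lies at 116 to 156 CPM, and both 5p arms lie below 3 CPM.

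The order of the arms was the same in every library, with miR-221-3p first, then miR-222-3p, miR-222-5p and miR-221-5p. By level among all arms miR-221-3p ranked 125 and 100 in Ago2 CD, against 95 and 121 in wildtype. MiR-222-3p ranked 190 and 173 in Ago2 CD, against 168 and 175 in wildtype. The levels of the 5p arms overlapped each other across libraries. Together the 3p arms held 470.3 and 764 CPM in Ago2 CD and 728 and 527 CPM in wildtype. As a plain share of all arm reads they made up 0.0650% and 0.0930% in Ago2 CD and 0.0449% and 0.0508% in wildtype, where miR-451a fills part of the total.

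The balance within the cluster was compared next, since both hairpins share a transcript. Reads of miR-222-3p per read of miR-221-3p were 0.329 and 0.226 in Ago2 CD, against 0.266 and 0.423 in wildtype. The genotypes overlapped. The ratio was higher in the library of 46 nt than in that of 50 nt in each genotype. The log2 difference was -0.30 (exact permutation p = 0.667, two-sided, where 2 libraries against 2 allow 0.333 at the least), and it was 0.034 without wildtype replicate 2.

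The ratio of 3p to 5p arm asks whether loss of cutting left more passenger strand. The 5p arm made up 0.255% (95% interval 0.151% to 0.402%) and 0.252% (0.141% to 0.416%) of mir-221 reads in the Ago2 CD libraries (replicates 1 and 2). In the wildtype libraries it made up 0.320% (0.160% to 0.571%) and 0.697% (0.442% to 1.04%). The mutant shares were lower than the wildtype ones. The exact Clopper-Pearson interval of wildtype replicate 2 lies above both mutant intervals, whereas that of wildtype replicate 1 overlaps them. On the log2 scale the 3p to 5p ratio differed by 0.90, Ago2 CD minus wildtype (SE 0.59, limma adjusted p = 0.995), or 1.45 and 0.36 within the libraries of 46 and 50 nt. Over all hairpins 2 of 280 passed (0.714%, limma).

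For mir-222 the 5p arm made up 1.44% (1.002% to 2.01%) and 2.05% (1.36% to 2.94%) of reads in the Ago2 CD libraries (replicates 1 and 2). In the wildtype libraries the shares were 1.72% (0.986% to 2.78%) and 1.70% (1.09% to 2.52%). The wildtype shares lay between the mutant ones. The ratio differed by 0.0076 on the log2 scale (SE 0.50, limma adjusted p = 0.995), or by 0.25 and -0.24 within the libraries of 46 and 50 nt. Its sign turned without Ago2 CD replicate 1 (-0.25) and without wildtype replicate 1 (-0.0070). The mean 5p share of neither hairpin was higher in Ago2 CD by more than the spread between libraries.

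The 3′ ends of the 3p arms were laid out as a ladder of lengths from the main 5′ end, hairpin position 60 for mir-221 and 49 for mir-222. The reads that carry the ladder are shown as in the files, with T for U and the seed in capitals, the longer ones differing only at the 3′ end.
miR-221-3p, 22 nt: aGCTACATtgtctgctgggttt
miR-221-3p, 23 nt: aGCTACATtgtctgctgggtttc
miR-222-3p, 21 nt: aGCTACATctggctactgggt
miR-222-3p, 23 nt: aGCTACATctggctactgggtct
miR-222-3p, 24 nt: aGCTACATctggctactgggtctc
The 23 nt form led in both arms and in every library. MiR-221-3p ended mostly at 22 and 23 nt, while miR-222-3p was spread over 20 to 25 nt, with more reads at 21 than at 22 nt in each library.

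The 23 nt read of miR-221-3p had 3017 and 3841 reads in Ago2 CD and 1871 and 1285 in wildtype. The 22 nt read had 2373 and 1138 reads in Ago2 CD and 967 and 1109 in wildtype. The 23 nt form thus made up 58.2% ± 17.3 of untailed reads from the main 5′ end in Ago2 CD and 49.8% ± 11.6 in wildtype (SD, n = 2 each), and the 22 nt form 28.5% ± 10.8 in Ago2 CD and 32.9% ± 4.22 in wildtype. The spread within a genotype came with read length, the 23 nt form being more frequent in both libraries of 50 nt. In miR-222-3p the 23 nt form made up 40.9% ± 2.65 in Ago2 CD and 37.9% ± 1.85 in wildtype, and the 21 nt form 17.5% ± 4.95 in Ago2 CD and 22.1% ± 0.181 in wildtype. The distributions by library are in the plot of read lengths.

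**Figure D2:**
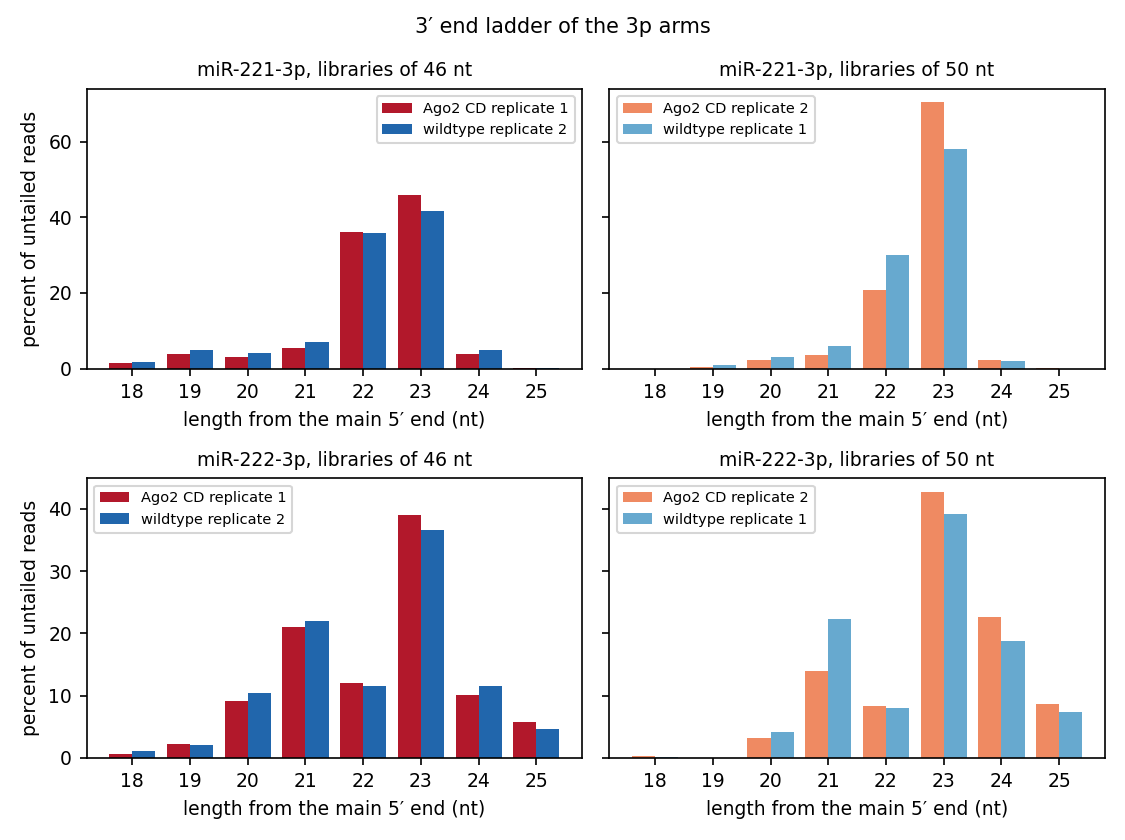
Percent of untailed reads from the main 5′ end by length for each 3p arm, with the Ago2 CD library left of the wildtype library of the same read length. The 23 nt bar is the highest in all panels, and in both pairs it is higher in Ago2 CD, while the 21 nt bar of both arms is lower in Ago2 CD.

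The mean length summarised the ladder. For miR-221-3p it was 22.3 and 22.7 nt in the Ago2 CD libraries and 22.5 and 22.2 nt in the wildtype ones. For miR-222-3p it was 22.3 and 22.9 nt in Ago2 CD and 22.7 and 22.2 nt in wildtype. The genotypes overlapped in both arms, but the mutant library had the higher mean within each read length. In the libraries of 50 nt these lengths may include an added C that matches the hairpin, as set out below. The differences were 0.14 nt (SE 0.22) for miR-221-3p, with 0.10 and 0.19 nt within the libraries of 46 and 50 nt, and 0.16 nt (SE 0.32) for miR-222-3p, with 0.08 and 0.24 nt. Both had a limma adjusted p of 0.999, and of 0.591 with read length in the model. Over all arms 0 of 251 passed (0%, limma), with 2 at an unadjusted p under 0.05, and 163 of the 251 differences were above 0, with a median of 0.017 nt. Without Ago2 CD replicate 2 or wildtype replicate 2 the differences were -0.062 and -0.015 nt for miR-221-3p and -0.16 and -0.079 nt for miR-222-3p.

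Part of the ladder was present in libraries of 1 read length alone. These 3 reads show it, with the seed in capitals.
miR-221-3p, 18 nt: aGCTACATtgtctgctgg
miR-222-3p, 19 nt: aGCTACATctggctactgg
miR-222-3p, 16 nt: aGCTACATctggctac
The 18 nt read of miR-221-3p had 95 and 0 reads in Ago2 CD replicates 1 and 2, against 0 and 50 in wildtype replicates 1 and 2. The 19 nt read of miR-222-3p, which ends in the same 4 letters, had 49 and 0 reads in Ago2 CD, against 0 and 27 in wildtype. The 16 nt read, which is that read without its last 3 letters, had 0 and 78 reads in Ago2 CD, against 61 and 0 in wildtype. The 18 and 19 nt reads were thus found in libraries of 46 nt and the 16 nt read in those of 50 nt, in both genotypes. The settings of adapter removal are not given for either read length, and whether they differed was not tested, so the absence of a form at 1 read length cannot be read as its absence from the RNA.

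The 5′ ends of the 3p arms, which fix the seed, were uniform. Of untailed miR-221-3p reads, 93.1% (95% interval 92.4% to 93.6%) and 92.1% (91.4% to 92.8%) began at position 60 in the Ago2 CD libraries (replicates 1 and 2). In the wildtype libraries the shares were 94.1% (93.3% to 94.9%) and 94.2% (93.3% to 94.95%). Both mutant shares were lower, and reads with a later 5′ end made up 6.72% and 7.27% in Ago2 CD against 5.45% and 5.52% in wildtype. The log2 difference of main to other 5′ ends was -0.36 (SE 0.27, limma adjusted p = 0.999), with -0.27 and -0.46 within the libraries of 46 and 50 nt. Over all arms 0 of 253 passed (0%, limma), with 2 at an unadjusted p under 0.05. The median difference was -0.11, and 80 of the 253 differences were above 0, so most arms leaned the same way.

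For miR-222-3p, 94.1% (93.1% to 95.1%) and 89.4% (87.6% to 91.01%) of reads began at position 49 in Ago2 CD. In wildtype 90.04% (87.9% to 91.9%) and 92.6% (91.1% to 94.0%) began there. The wildtype shares lay between the mutant ones. The log2 difference of 0.13 (SE 0.47, limma adjusted p = 0.999) turned to -0.33 without Ago2 CD replicate 1 and to -0.11 without wildtype replicate 1. In miR-221-3p, which later 5′ end was used followed read length. Reads of miR-221-3p that began 3 nt late numbered 75 and 227 in Ago2 CD and 99 and 30 in wildtype, whereas those that began 1 nt late numbered 227 and 48 in Ago2 CD and 24 and 101 in wildtype. The class that began 3 nt late lacks the first 2 bases of the seed and was the more frequent in both libraries of 50 nt. In miR-222-3p reads 3 nt late followed read length too, with 0.689% and 3.13% in Ago2 CD and 2.08% and 0.505% in wildtype. Those 1 nt late did not, with 1.85% and 1.49% in Ago2 CD and 1.86% and 2.82% in wildtype.

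Each 5p arm had an alternative 5′ end with another seed. The reads are shown with the seed in capitals.
miR-222-5p from position 9: gGCTCAGTagccagtgtagatc
miR-222-5p from position 12: tCAGTAGCcagtgtagatcctg
miR-221-5p from position 20: aCCTGGCAtacaatgtagatttctgt
miR-221-5p from position 19: aACCTGGCatacaatgtagattt
Reads of miR-222-5p from position 9 numbered 17 and 19 in Ago2 CD and 14 and 20 in wildtype. Those from position 12 numbered 14 and 9 in Ago2 CD and 2 and 3 in wildtype, or 41.2% (95% interval 24.6% to 59.3%) and 32.1% (15.9% to 52.4%) of the arm in Ago2 CD against 12.5% (1.55% to 38.3%) and 12.5% (2.66% to 32.4%) in wildtype. For miR-221-5p, 6 of 18 and 3 of 15 reads in Ago2 CD began at position 19, against 0 of 11 and 1 of 23 in wildtype. In both hairpins the alternative end had a higher share in both mutant libraries, but the intervals overlap, and this pattern was chosen after its values were seen.

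**Figure D3:**
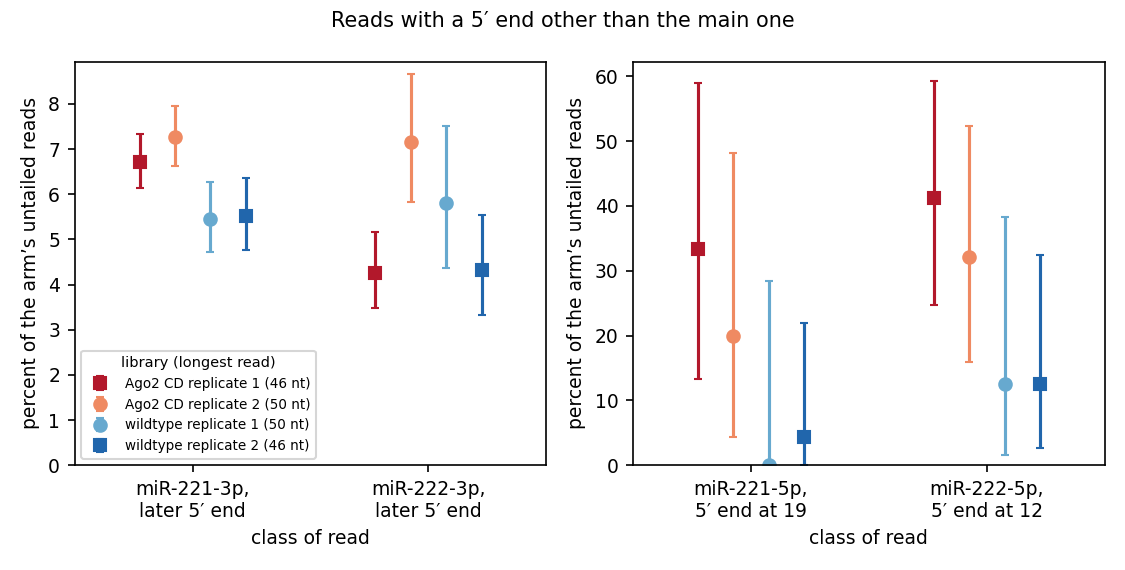
Percent of an arm's untailed reads with a 5′ end other than the main one, with exact 95% intervals, Ago2 CD left of wildtype in each class, squares for libraries of 46 nt and circles for libraries of 50 nt. Later ends of miR-221-3p lie at 6.72% and 7.27% in Ago2 CD above 5.45% and 5.52% in wildtype, while the intervals of the 5p arms are wide.

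Nucleotides that the hairpin does not hold are added to the 3′ end of miRNAs by terminal transferases, mostly as A or U. The examples below have the added base in capitals.
miR-221-3p with U after 23 nt: agctacattgtctgctgggtttcT
miR-221-3p with U after 22 nt: agctacattgtctgctgggtttT
miR-221-3p with A after 22 nt: agctacattgtctgctgggtttA
miR-222-3p with A after 22 nt: agctacatctggctactgggtcA
miR-222-3p with A after 24 nt: agctacatctggctactgggtctcA
A single U was seen more often than a single A on miR-221-3p, and a single A more often than a single U on miR-222-3p, in each of the libraries. A single added U was found on 6.16% ± 0.759 of miR-221-3p reads in Ago2 CD and 6.25% ± 0.769 in wildtype, and a single A on 1.64% ± 0.888 in Ago2 CD and 2.49% ± 1.38 in wildtype (SD, n = 2 each). On miR-222-3p a single U was found on 1.66% ± 0.172 of reads in Ago2 CD and 2.03% ± 0.208 in wildtype, and a single A on 3.42% ± 1.55 in Ago2 CD and 3.72% ± 2.02 in wildtype.

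A base that the hairpin also holds at the next position cannot be seen as added. In miR-221-3p the base after the 23 nt form is A and that after the 19, 20 and 21 nt forms is U. In miR-222-3p the base after the 20, 22 and 24 nt forms is U. Both shares of miR-221-3p and the U share of miR-222-3p are therefore lower limits, and the order of A and U on the arms cannot be told apart from this difference in sequence. The U on miR-221-3p stood after 23 nt in 271 and 247 reads in Ago2 CD and in 157 and 112 reads in wildtype. It stood after 22 nt in 214 and 90 reads in Ago2 CD and in 58 and 118 reads in wildtype.

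Single A or U tails together made up 8.97% (95% interval 8.35% to 9.61%) and 6.64% (6.06% to 7.25%) of miR-221-3p reads in the Ago2 CD libraries (replicates 1 and 2). In the wildtype libraries they made up 7.22% (6.45% to 8.06%) and 10.3% (9.32% to 11.3%). For miR-222-3p the shares were 6.30% (5.41% to 7.28%) and 3.86% (3.04% to 4.83%) in Ago2 CD, and 4.18% (3.13% to 5.46%) and 7.33% (6.12% to 8.69%) in wildtype. In both arms the genotypes overlapped, and the mutant library had the lower share within each read length. The log2 differences of tailed to untailed reads were -0.20 (SE 0.35) for miR-221-3p, with -0.24 and -0.16 within the libraries of 46 and 50 nt, and -0.15 (SE 0.37) for miR-222-3p, with -0.26 and -0.040. Both had a limma adjusted p of 0.999, and 0.388 and 0.549 with read length in the model. Over all arms 0 of 253 passed (0%, limma), with 1 at an unadjusted p under 0.05. The median difference was -0.08, and 90 of the 253 differences were above 0, so most arms leaned the same way. Without Ago2 CD replicate 2 or wildtype replicate 2 the values were 0.0031 and 0.044 for miR-221-3p and 0.064 and 0.17 for miR-222-3p.

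A single C at the 3′ end followed read length. Over all arms together, tails of 1 to 3 C did so too, found on 0.152% and 16.3% of reads in Ago2 CD and 12.8% and 0.128% in wildtype. A single C was found on 7 and 382 reads of miR-221-3p in Ago2 CD replicates 1 and 2 and on 260 and 3 in wildtype replicates 1 and 2. On miR-222-3p it was found on 2 and 355 reads in Ago2 CD, and on 175 and 2 in wildtype, which is 18.8% (17.1% to 20.6%) and 14.4% (12.4% to 16.5%) of reads in the libraries of 50 nt. A C added after 22 nt of miR-221-3p gives the letters of the 23 nt read. The larger share of the 23 nt form in both libraries of 50 nt therefore cannot be told apart from such an addition. Whether adapter removal differed between read lengths was not tested, so the C is given as a base of the read and not as one added in the cell.

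**Figure D4:**
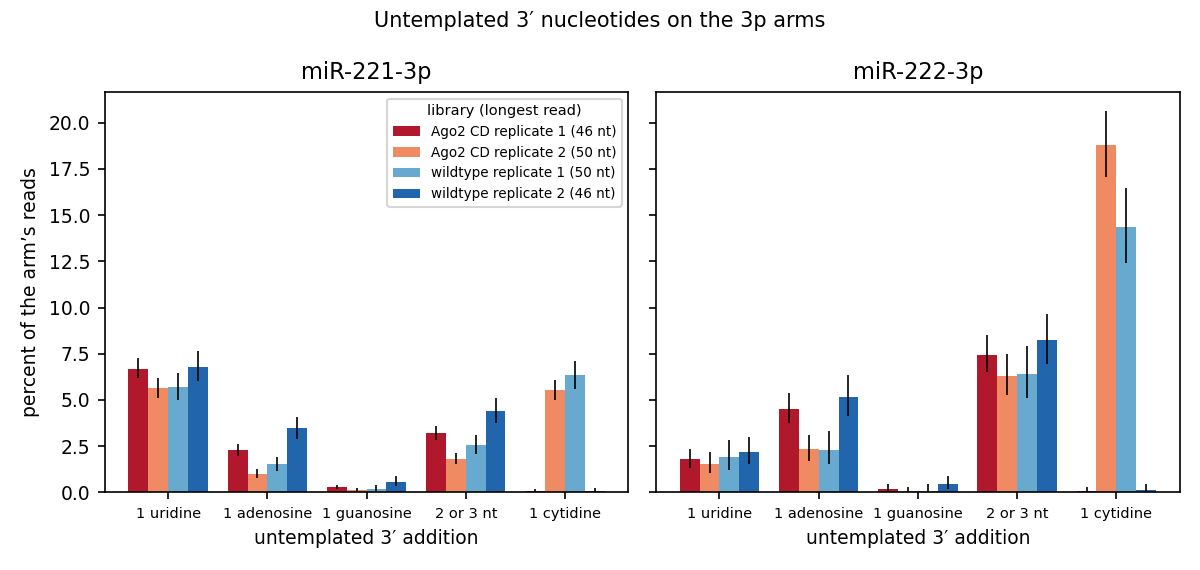
Percent of reads of each 3p arm with 3′ bases that the hairpin does not hold, with exact 95% intervals, in Ago2 CD replicates 1 and 2 and then wildtype replicates 1 and 2. A single uridine is more frequent than a single adenosine in miR-221-3p, a single adenosine is more frequent than a single uridine in miR-222-3p, and cytidine is near 0 in both libraries of 46 nt.

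The other miRNAs of stem and progenitor cells were set beside mir-221 and mir-222, 16 listed arms that became 14 after merging of identical arms. All 14 were tested, 0 rose and 0 fell (edgeR), where 0.343% of all arms passed. Their median log2 fold change was -0.08, with 6 of 14 above 0, against a median of 0.04 over all arms with 313 of 583 above 0. The values furthest up were 0.41 (SE 0.71) for miR-196b-5p, a miRNA of the Hox clusters, and 0.29 (SE 0.35) for miR-155-5p, which acts in immune and progenitor cells. Those furthest down were -0.31 (SE 0.72) for miR-100-5p and -0.18 (SE 0.57) for miR-10a-5p, each with an edgeR adjusted p of 0.996. The log2 fold changes of both 3p arms lie within this range.

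**Figure D5:**
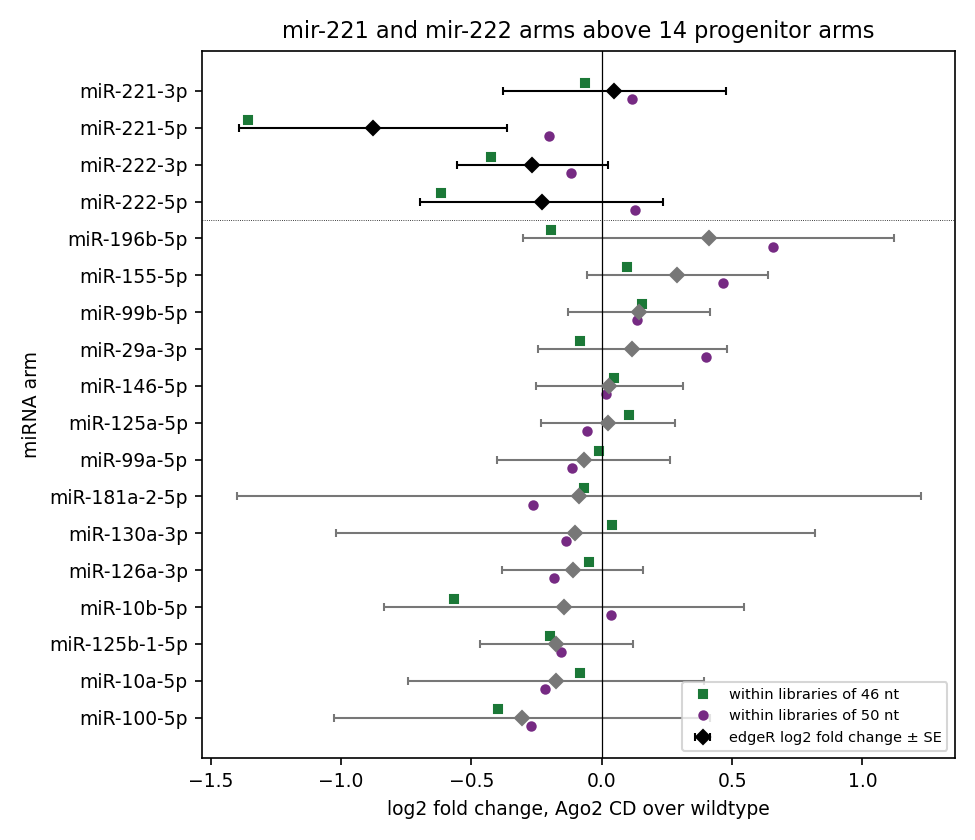
Log2 fold change, Ago2 CD over wildtype, of the 4 arms of mir-221 and mir-222 (black) and 14 arms of the progenitor list (grey), with standard errors, and the value within libraries of 46 nt (green squares) and 50 nt (purple circles). The 3p arms lie at 0.05 and -0.27, inside the span of the list, and miR-221-5p lies at -0.88.

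Markers of the cell types of the liver were summed over whole lists. The 14 progenitor arms summed to 11754 and 19315 CPM in Ago2 CD and 20983 and 11877 CPM in wildtype. The higher sums of the libraries of 50 nt came from miR-130a-3p, with 3169 and 11318 CPM in Ago2 CD and 12457 and 3082 CPM in wildtype. Without it, a choice made after its values were seen, the other 13 arms summed to 8585 and 7996 CPM in Ago2 CD and 8525 and 8795 CPM in wildtype. MiR-181a-5p went the other way, with 952 and 117 CPM in Ago2 CD and 140 and 997 CPM in wildtype. The 2 endothelial arms, both of mir-126, of which the 3p arm is also on the progenitor list, summed to 6236 and 7518 CPM in Ago2 CD and 8266 and 6188 CPM in wildtype. The 3 hepatocyte arms, of miR-122, miR-192 and miR-194, summed to 70438 and 33931 CPM in Ago2 CD and 25227 and 55933 CPM in wildtype, low in both libraries of 50 nt. The 4 mesenchymal arms summed to 3073 and 2024 CPM in Ago2 CD and 2333 and 3162 CPM in wildtype, and the 4 myeloid and lymphoid arms to 70824 and 60291 CPM in Ago2 CD against 70562 and 71079 CPM in wildtype. The 5 erythroid arms, with miR-451a, summed to 247443 and 330781 CPM in Ago2 CD against 1124064 and 585560 CPM in wildtype, where TMM scaling lets a sum pass the nominal total. The part of these cell types in the levels of mir-221 and mir-222 was not tested. Arms of every list were present in every library, so that the label of progenitors could not be checked for mir-221 and mir-222.

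The arms closest to each 3p arm in profile were found by the root mean square difference of centred log2 CPM over the 4 libraries, among 367 arms. Closest to miR-221-3p were the 3p arm of Gm24715, which is merged with 16 other annotated arms (0.042), miR-467d-5p (0.067) and miR-28a-3p (0.075), against a median of 0.46. Closest to miR-222-3p were miR-455-3p (0.047), miR-218-5p (0.058) and miR-148b-5p (0.087), against a median of 0.38. Although both 3p arms come from 1 cluster, miR-222-3p was number 127 in closeness to miR-221-3p, at 0.34, and miR-221-3p number 151 to miR-222-3p. MiR-221-3p had 1.65 times as many CPM in the libraries of 50 nt as in those of 46 nt and miR-222-3p had 1.08 times as many.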

How the data were processed

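Small RNA of fetal liver had been sequenced after Trizol extraction and library preparation with a TruSeq small RNA kit under a modified protocol, per the labels' protocols. The deposited files hold counts of reads per distinct sequence, not normalized. The submitters' processing notes name cutadapt, without version. The aligner, build and trimming settings are not given in the sources used here. Repeated rows were summed and reads with an undetermined base left out (0.183% to 0.256%).

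Reads were matched without mismatch to the sense strand of GENCODE vM21 hairpins (GRCm38), then with their last 1 to 3 nt taken off. An arm is the side of the hairpin's midpoint that holds the middle of a read of 18 to 27 nt. Arms whose most frequent reads share their first 18 nt, or nest, were merged, and reads on several arms left out. Levels of arms were compared with edgeR 4.0.16 (R 4.3.3, glmQLFit, TMM, filterByExpr), all libraries together, two-sided, at a Benjamini-Hochberg adjusted p of 0.05. Standard errors of level were taken from the log2 fold change and its F statistic. Ratios, lengths, 5′ ends and tails were tested with limma 3.58.1 (pseudocount 0.5 for log ratios), for arms of 200 reads or more in every library, or hairpins with 20 reads in every library and 10 on the minor arm. Both 5p arms fell short of 200 reads. CPM within pairs used a prior count of 2. A count of 0 allows up to 3 reads, and intervals cover counting error only, since no molecular identifiers are named in the labels. Folds were predicted with RNAfold 2.7.2. DESeq2 1.42.0 was an alternative, beside other scalings, filters, read definitions and left-out libraries. Other software was Python 3.11.15, NumPy 2.4.6, SciPy 1.17.1, pandas 2.3.3 and matplotlib 3.10.9. The functions were tested on simulated data.

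The text names the 4 arms, arms with the same seed, the 3 arms (mean of at least 10 CPM) closest in profile to each 3p arm, and of the progenitor list the arms past the threshold or else the 2 highest and 2 lowest fold changes. Members, lists and tests were chosen with earlier results of these data known.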

Additional observations from a re-analysis of the deposited data

How the results depend on the processing

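No arm of mir-221 or mir-222 passed any test under any alternative that was run. The number of all arms past the threshold for level was 8 with DESeq2, 1 with reads on arms other than miR-451a and miR-486 as library size, 12 without a filter, 17 with read length in the model, and 0 to 4 on leaving out each library. The log2 fold change of miR-221-3p turned to -0.091 with the library size without miR-451a and miR-486, where the median of all arms was -0.12, and to -0.017 with tailed reads counted. It lay between -0.40 and 0.44 when libraries were left out one at a time, where the lone sample of a genotype is assumed to vary like the other genotype. With reads on arms as library size, where the median of all arms was 0.74, miR-222-3p and miR-222-5p turned to 0.44 and 0.47, while miR-221-3p was 0.81 and miR-221-5p -0.21. Leaving out each library gave -0.64 to 0.14 for miR-222-5p. The arm ratio of mir-222 was -0.017 with tailed reads counted and -0.25 to 0.27 on leaving out each library, which passed 0 to 2 hairpins. Lengths at any 5′ end passed 1 arm. Leaving out each library gave -0.062 to 0.35 nt and -0.16 to 0.48 nt for the lengths of miR-221-3p and miR-222-3p, -0.33 to 0.59 for the main 5′ end of miR-222-3p, and -0.44 to 0.044 and -0.47 to 0.17 for the tails of miR-221-3p and miR-222-3p, with 0 to 1 arms past the threshold for tails. With all tails, C included, miR-222-3p had 0.027. The log2 difference of the miR-222-3p to miR-221-3p ratio ranged from -0.63 to 0.034. The cause was not tested.

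The replicate number as a block passed 3 arms for level and 1 hairpin for the arm ratio, with log2 fold changes of 0.026 for miR-221-3p and -0.27 for miR-222-3p. Libraries of the same number had a correlation of -0.72 over 583 arms. With 2 libraries per genotype this is by construction the mirror of the 0.72 for the same read length, and not a separate observation. The crossed pairing is that of read length, with 17 arms past the threshold. MiR-222-3p had its lowest count, 914 reads, in wildtype replicate 1, so it is missing from fits with at least 1000 reads.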

Other observations

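Reads outside the size range of an arm were few. Untailed reads of 16 and 17 nt numbered 191 and 91 for mir-221 in Ago2 CD replicates 1 and 2, and 32 and 68 in wildtype replicates 1 and 2. For mir-222 they numbered 24 and 82 in Ago2 CD, and 76 and 21 in wildtype. No untailed read longer than 27 nt was found on either hairpin in any library, where a count of 0 allows up to 3 reads per library. Reads from the opposite strand of either hairpin numbered 0 in every library as well. Shorter reads that hold bases before the 3p arm were present. Those of miR-222-3p that began at position 48 numbered 20 and 30 in Ago2 CD and 25 and 21 in wildtype.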
